A study of Mus musculus with 6 samples.

Results

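DNA replication and S phase genes were followed in 4T1, a breast cancer line of the mouse whose labels call it negative for the oestrogen, progesterone and HER2 receptors. The list held 34 genes, chosen by gene symbol. Of these, 32 were found as rows of the deposited expression table annotated to that symbol alone, among 23385 genes measured in all, and for each gene the row with the highest mean over the 6 arrays was used. The other 2, Ccne2 and Rfc4, lay only on rows shared with another gene and are described apart. The tumour cells had been cultured for 24 h in DMEM with serum, either with pro-inflammatory (PI) bone marrow-derived macrophages (3 arrays) or with anti-inflammatory (AI) ones (3 arrays). Macrophages were then removed on a column by CD11b-directed magnetic beads, and RNA of the remaining tumour fraction was hybridised to Affymetrix arrays. Macrophages came from individual mice, while the tumour cells of every array were the same line. The sources used here do not give the agents used for polarisation, the strain, sex or age of the mice, or whether a PI and an AI array shared a mouse. No arrays of 4T1 cells grown without macrophages were compared, so a difference between PI and AI cannot be assigned to either co-culture.

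Before S phase, the loading factors Cdc6 and Cdt1 place the MCM ring, the helicase core built of the subunits Mcm2 to Mcm7, on replication origins, a step called licensing. Cdc45 and the GINS complex then join the ring and turn it into the active helicase, DNA polymerases copy both strands behind it, and the clamp Pcna holds polymerases and flap and nick enzymes on the DNA. Many of these genes are transcribed late in G1 by E2F factors, and because their RNA is high in dividing cells they are widely used as a readout of proliferation in tumour lines.

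E2F words stood before the start of several of these genes, a feature that the choice of genes did not use. Promoters of 29 of the 34 genes were held in the RefSeq promoter table (GRCm38.p6). The 250 bases before each start were searched on both strands for the E2F words TTTCCCGC, TTTCGCGC, TTTGCCGC and TTTGGCGC, and for CCAAT, the word bound by NF-Y, with overlapping words counted. An E2F word was present in 9 of the 29 genes (31.0%), against 583 of 27025 genes in the whole table (2.16%), and in 14 of 83 other genes of the replication pathway and 1 of 25 mitosis genes. CCAAT was present in 19 of the 29 (65.5%), against 37.5% of the whole table. It was present in 19 of the 25 mitosis genes (76%) and in 35 of the 83 other pathway genes (42.2%). The stretches that hold the E2F words are printed for all 9 genes because such words are the best known control sequence of this class of genes, 5′ to 3′ on the strand of the gene, with the words in capitals. Coordinates are those of GRCm38.p6, and the stretch of Uhrf1 belongs to the second of its promoters in the table. A word written as its reverse complement lies on the opposite strand.
Mcm5, chr8:75109344-75109379, plus strand: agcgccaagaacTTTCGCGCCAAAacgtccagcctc
Mcm6, chr1:128359733-128359827, minus strand: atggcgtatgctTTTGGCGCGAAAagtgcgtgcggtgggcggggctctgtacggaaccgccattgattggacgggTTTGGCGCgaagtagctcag
Mcm7, chr5:138172029-138172060, minus strand: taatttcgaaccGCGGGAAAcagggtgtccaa
Cdc6, chr11:98908001-98908032, plus strand: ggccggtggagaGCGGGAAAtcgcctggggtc
Gins3, chr8:95633506-95633537, plus strand: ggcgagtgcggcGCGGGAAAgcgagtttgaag
Pola1, chrX:93632274-93632305, minus strand: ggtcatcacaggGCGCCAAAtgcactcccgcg
Rfc3, chr5:151651209-151651230, minus strand: gacgtcgcacgcTTTCGCGCtc
Uhrf1, chr17:56304116-56304147, plus strand: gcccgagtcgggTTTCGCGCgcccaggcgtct
Dtl, chr1:191575545-191575564, minus strand: gcgtgacgtcagTTTGGCGC

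In Mcm5 and Mcm6, words on opposite strands overlapped, so that the first stretch of capitals in each reads as an E2F word from either side. Mcm6 held a further word, on the strand of the gene only, whose first base lay at -47 from the start. In Dtl the word ended on the base before the start, and in Rfc3 its first base lay at -10. A match of these letters is a description of the sequence and does not show that a factor binds there.

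None of the 32 replication genes differed between PI and AI co-cultures beyond the threshold. Levels are RMA values in log2 units, differences are PI minus AI, and the test was limma's moderated test with adjustment over all 23385 genes at 0.05. Under it 0 of the 32 passed in either direction (smallest adjusted p = 0.704), while 0.0727% of all genes passed, all of them higher in PI. At an unadjusted p under 0.05 the limma count was also 0 of 32, against 7.36% of all genes. It was 3 with an unmoderated test (7.0% of all genes), 2 with limma using an intensity trend and robust variance (8.01%) and 4 with low values floored (7.88%), each with 0 members past the adjusted threshold. Differences ran from -0.15 for Mcm2 to 0.11 for Gins3, with a median of -0.018 over the 32 genes and -0.0080 over all genes.

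The precision of the arrays set a narrow bound on these differences. The median 95% interval reached 0.19 to either side for the 32 genes, against 0.25 for all genes. Every interval of the 32 lay between -0.32 and 0.35, that is, between 1.25-fold lower and 1.27-fold higher in PI. These intervals hold for the scaling as deposited. The interval end farthest from 0 was 0.375 in size after centring, 0.397 after repeated quantile normalisation and 0.393 after cyclic loess. Without AI array 1 it was 0.435. For 32 of 32 genes the interval excluded a log2 difference of 0.5 in either direction, as it did for 18843 of all 23385 genes. It also did so for 5633 of the 5847 genes in the top 25 percent by level and for 29 of 29 mitosis genes. In those 2 lists the median interval reached 0.199 and 0.185 to either side, so narrow intervals were not particular to the 32 genes. Differences inside these intervals remain possible with 3 arrays a group. The values come from the whole tumour fraction, so the share of cells in S phase and RNA per cell cannot be told apart.

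**Figure D1:**
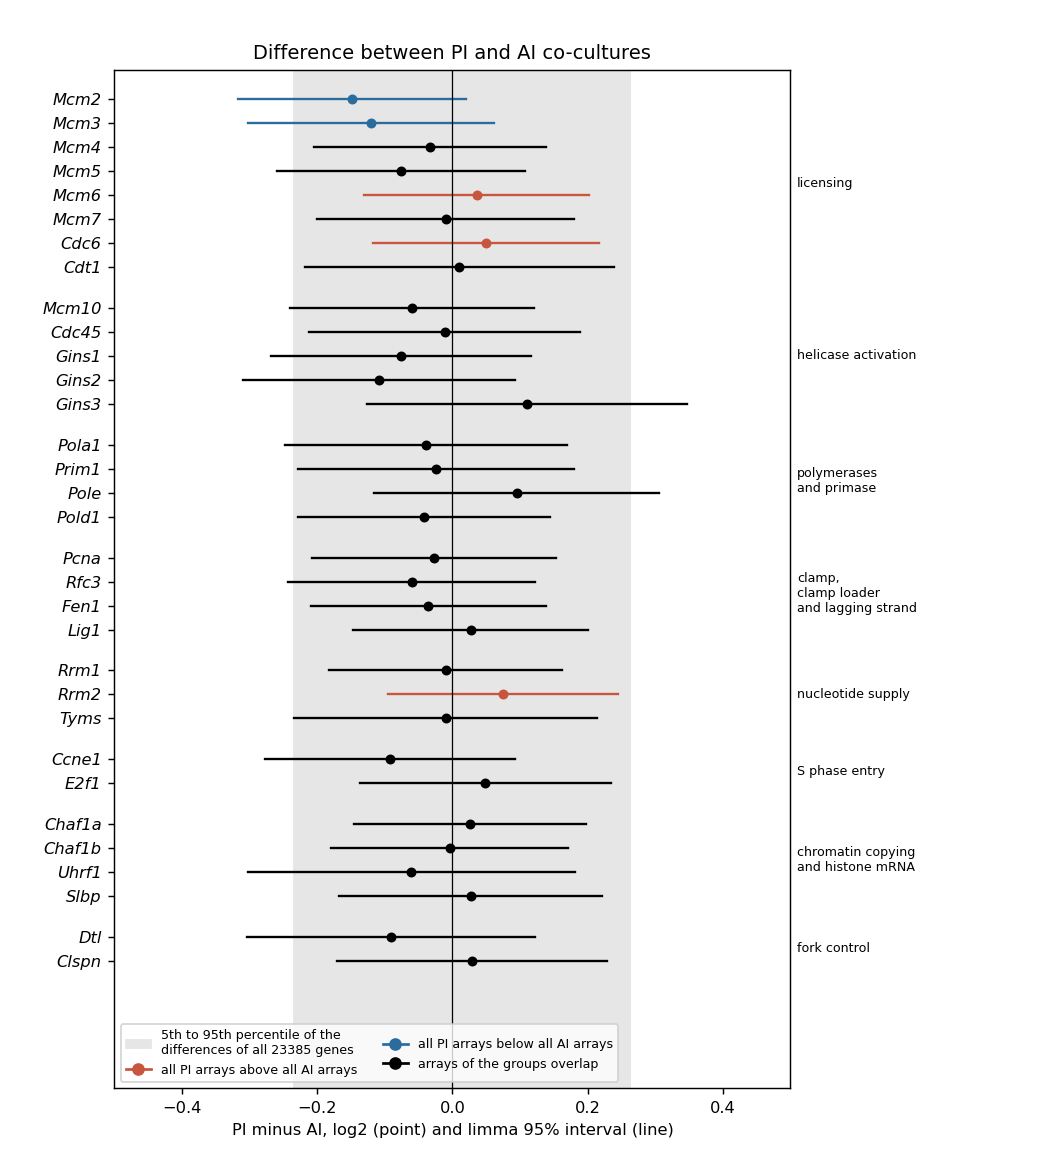
PI minus AI difference of each replication gene on the log2 scale (horizontal axis), with genes down the page by role. Points are differences, lines are limma 95% intervals (n = 3 arrays a group), colours mark genes with no overlap between groups, and the grey band holds the 5th to 95th percentile of the differences of all 23385 genes. Every interval includes 0, and the points lie between -0.15 and 0.11.

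Replicate arrays agreed closely for these genes. The pooled SD within groups had a median of 0.062 over the 32 genes, against 0.13 over all genes and 0.081 over the 25 percent of genes with the highest level. By mean level the 32 genes lay between percentiles 66.6 (Fen1) and 99.4 (Pcna) of all genes, with a median of 89.6. These percentiles place signals on the array and do not rank the amounts of RNA, since probe sets share no scale. In 5 of the 32 genes the groups did not overlap, against 13.2% of all genes. In 2 genes all PI arrays lay below all AI arrays (Mcm2 and Mcm3), as in 7.32% of all genes, and in 3 genes all PI arrays lay above (Mcm6, Cdc6 and Rrm2), as in 5.85% of all genes. The count was 13 without PI array 3, against 24.0% of all genes, and 9 without AI array 1, against 24.1%. After each array was centred on its median it was 9, all lower in PI, against 15.9% of all genes. The groups then overlapped for Mcm6, Cdc6 and Rrm2. A second row of Rrm2, not used here, was separated the other way, with all PI arrays below all AI arrays (-0.14).

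Of the 32 differences, 21 were below 0 (65.6%), against 52.7% of all genes. Among the 25 percent of genes with the highest level the share was 67.3%, with a median difference of -0.037. In the scaling as deposited, the share among the replication genes was thus close to that of strongly expressed genes as a whole. The count moved with the scaling of the arrays. It was 27 (84.4%) after each array was centred on its median, 15 (46.9%) after a repeated quantile normalisation and 13 (40.6%) after cyclic loess. The shares among the genes with the highest level were then 82.8%, 54.25% and 50.3%. The median deviation of the 32 genes from their 6-array means was -0.018, 0.0056 and 0.0013 in PI arrays 1 to 3, against 0.023, -0.011 and 0.014 in AI arrays 1 to 3. The groups overlapped on this measure. PI arrays 1 and 3 were each the lowest array for 9 of the 32 genes. The summed linear signal of the 32 genes was 20025 to 20548 in PI arrays and 20377 to 20594 in AI arrays, again with overlap.

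**Figure D2:**
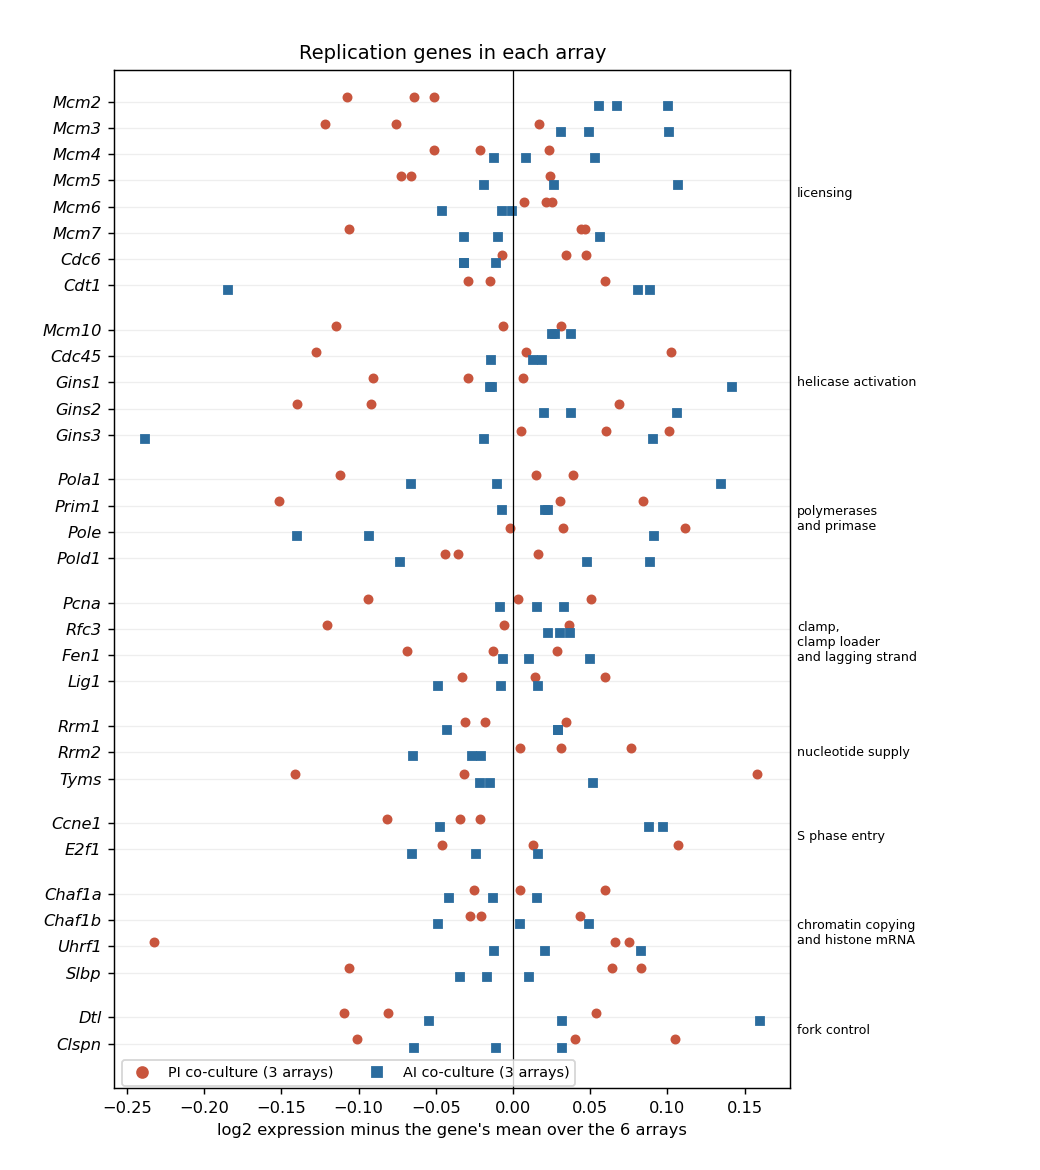
Level of each replication gene in each array as log2 expression minus the gene's mean over the 6 arrays (horizontal axis), with genes down the page by role. Circles are the 3 PI arrays and squares the 3 AI arrays. The groups are apart in Mcm2, Mcm3, Mcm6, Cdc6 and Rrm2 and overlap in the other genes. Rrm2 is shown by its row of higher level, and its other row is separated in the opposite direction.

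**Figure D3:**
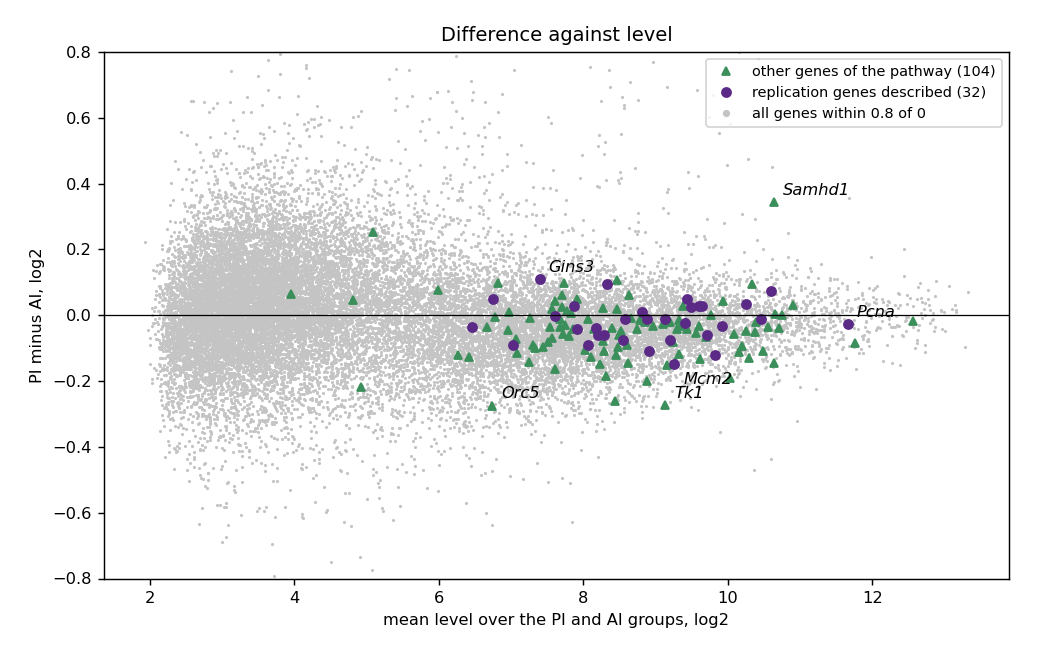
PI minus AI difference (vertical axis, log2) against mean level (horizontal axis, log2) for 32 replication genes, 104 other genes of the pathway and all genes within 0.8 of 0. The replication genes lie in the upper part of the level range, close to 0. The labelled genes Samhd1, Orc5 and Tk1 of the wider pathway stand farther out, at 0.34, -0.27 and -0.27.

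Among the licensing genes, Mcm2 (transcript cluster 17468798, Entrez 17216) had the largest difference and the smallest p. Its log2 levels were 9.15, 9.20 and 9.21 in the PI arrays, against 9.32, 9.33 and 9.36 in the AI arrays. All PI arrays lay below all AI arrays, although the gap was small. The means were 9.19 ± 0.029 in PI and 9.33 ± 0.023 in AI (SD, n = 3 each), a difference of -0.15 or 1.11-fold lower in PI. The limma 95% interval was -0.32 to 0.019 (adjusted p = 0.704). Mcm3 (transcript cluster 17221633, Entrez 17215) had levels of 9.70, 9.84 and 9.74 in the PI arrays, against 9.85, 9.92 and 9.87 in the AI arrays. It too was separated by group, with a difference of -0.12 (interval -0.30 to 0.061, limma adjusted p = 0.777).

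No other subunit of the same helicase ring was below its AI arrays in every PI array, although Mcm5 was so after the arrays were centred on their medians (a difference of -0.12). Mcm5 had levels of 9.13, 9.14 and 9.23 in the PI arrays, against 9.23, 9.18 and 9.31 in the AI arrays, with a difference of -0.076 and overlapping groups. Mcm4 and Mcm7 had differences of -0.033 and -0.010, also with overlap. Mcm6, whose promoter carried 3 E2F words, had levels of 10.27, 10.28 and 10.26 in the PI arrays, against 10.25, 10.20 and 10.24 in the AI arrays. Its PI arrays lay above its AI arrays by a narrow margin, with a difference of 0.036 that became -0.0069 after centring of the arrays. Over the 6 ring subunits the median difference was -0.055, with 5 of 6 below 0. Mcm7 also had 2 dimmer clusters shared with the microRNA genes Mir93 and Mir25 inside its locus, which were not used.

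The loaders of the ring were close to equal between groups. Cdc6 had levels of 9.476, 9.421 and 9.463 in the PI arrays, against 9.397, 9.417 and 9.397 in the AI arrays, so that the lowest PI array lay just above the highest AI array. The difference was 0.050 (interval -0.12 to 0.22, limma adjusted p = 0.903). Cdt1 had a difference of 0.010 (interval -0.22 to 0.24). In Cdt1 the AI arrays spread more than the PI arrays, since AI array 1 lay at 8.63 and the others at 8.90 and 8.89.

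The genes that activate the helicase included the highest value of the set. Gins3 and Gins2 encode subunits of GINS, which bridges the ring and the leading-strand polymerase. Gins3 (transcript cluster 17504321, Entrez 78833) had levels of 7.45, 7.40 and 7.50 in the PI arrays, against 7.49, 7.38 and 7.16 in the AI arrays. AI array 3 was the lowest and the groups overlapped, with a difference of 0.11 (interval -0.13 to 0.35, limma adjusted p = 0.843). The value was 0.019 without AI array 3 and 0.18 without AI array 1. Gins2 had levels of 8.82, 8.78 and 8.98 in the PI arrays, against 9.02, 8.95 and 8.93 in the AI arrays, with overlap through PI array 3 and a difference of -0.11 (interval -0.31 to 0.092, limma adjusted p = 0.818). These subunits of a single complex thus had values on opposite sides of 0, neither past the test.

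Gins1, a further GINS subunit, had levels of 8.52, 8.56 and 8.46 in the PI arrays, against 8.69, 8.54 and 8.54 in the AI arrays, with a difference of -0.076. AI array 1 was the highest, and the other 5 arrays were mixed. Cdc45, which joins the ring as the helicase is switched on, had levels of 9.01, 9.14 and 9.24 in the PI arrays, against 9.15, 9.12 and 9.15 in the AI arrays. Its PI arrays lay on both sides of its AI arrays, and the difference was -0.011. Mcm10, which acts at the same step, had a difference of -0.060, with PI array 1 at 8.17 below the other 5 arrays.

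The polymerases had no common direction. Pole, the catalytic subunit of the leading-strand polymerase epsilon, had levels of 8.35, 8.43 and 8.32 in the PI arrays, against 8.41, 8.23 and 8.18 in the AI arrays, with a difference of 0.095 (interval -0.12 to 0.31, limma adjusted p = 0.847). AI array 1 lay among the PI arrays. Pold1, the catalytic subunit of polymerase delta, had a difference of -0.042. Pola1 and Prim1, the polymerase alpha and primase subunits that lay down primers, had differences of -0.039 and -0.024. In Prim1 the PI arrays spread from 9.26 to 9.49, around the AI arrays at 9.40 to 9.43. A further cluster of Pole, at a mean of 5.19 in PI and 4.97 in AI, had a difference of 0.23, in the same direction and not past the test (limma adjusted p = 0.816 over all clusters).

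Pcna, the sliding clamp, had the brightest cluster of the set, at 11.71, 11.66 and 11.56 in the PI arrays, against 11.69, 11.65 and 11.67 in the AI arrays. The groups overlapped and the difference was -0.027 (interval -0.21 to 0.15). Rfc3, a subunit of the loader that opens the clamp, had a difference of -0.060, with AI arrays within 8.23 to 8.25 and PI array 1 the lowest at 8.09. Lig1, the ligase that seals Okazaki fragments, had a difference of 0.027. Fen1, the flap nuclease that trims them, had a difference of -0.035, and its second cluster -0.099. Rfc4 was measured only on a cluster shared with the translation factor gene Eif4a2, which had levels of 7.50, 7.64 and 7.50 in the PI arrays, against 7.54, 7.63 and 7.63 in the AI arrays, and that signal cannot be assigned to either gene.

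Of the nucleotide genes, Rrm2 gave different answers on its 2 clusters. Rrm2 encodes the small subunit of ribonucleotide reductase, the enzyme that makes deoxynucleotides, and it is the subunit whose level follows S phase. The cluster of higher level (transcript cluster 17547690, Entrez 20135) had 10.63, 10.67 and 10.60 in the PI arrays, against 10.57, 10.58 and 10.53 in the AI arrays. All PI arrays lay above all AI arrays, with a difference of 0.075 (interval -0.095 to 0.24, limma adjusted p = 0.851). The other cluster (17274540) had 9.61, 9.67 and 9.64 in the PI arrays, against 9.78, 9.77 and 9.77 in the AI arrays. There all PI arrays lay below all AI arrays, with a difference of -0.14 (interval -0.31 to 0.041, limma adjusted p = 0.804 over all clusters). Averaged over both clusters, the difference was -0.031. No direction can therefore be given for Rrm2.

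Rrm1, the large subunit of the same enzyme, had levels of 10.43, 10.50 and 10.44 in the PI arrays, against 10.49, 10.49 and 10.42 in the AI arrays, with a difference of -0.010. The groups overlapped almost fully. Tyms, the thymidylate synthase, had levels of 8.73, 8.54 and 8.43 in the PI arrays, against 8.55, 8.56 and 8.62 in the AI arrays, with a difference of -0.010. PI arrays 1 and 3 were the highest and lowest of the 6. A low cluster annotated to both Tyms and the pseudogene Tyms-ps had 4.95, 4.38 and 4.81 in the PI arrays, against 4.23, 4.35 and 4.04 in the AI arrays, a difference of 0.51 that missed the threshold (limma adjusted p = 0.732 over all clusters). All PI arrays lay above all AI arrays there, but its signal cannot be assigned to Tyms.

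The genes of S phase entry were also close. Ccne1, a cyclin that activates Cdk2 at the G1 to S transition, had levels of 7.004, 6.991 and 6.944 in the PI arrays, against 6.978, 7.122 and 7.113 in the AI arrays. AI array 1 lay among the PI arrays, and the difference was -0.092 (interval -0.28 to 0.093, limma adjusted p = 0.835). E2f1, a transcription factor that switches on many of the genes described here, had levels of 6.86, 6.76 and 6.70 in the PI arrays, against 6.69, 6.73 and 6.77 in the AI arrays, with a difference of 0.049. The related cyclin gene Ccne2 was measured only on a cluster shared with Ints8, at 8.69, 8.44 and 8.41 in the PI arrays, against 8.73, 8.79 and 8.52 in the AI arrays, with a difference of -0.17 for that shared signal (limma adjusted p = 0.839 over all clusters).

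Genes that rebuild chromatin behind the fork showed no separation. Uhrf1, which recognises half-methylated DNA and recruits the maintenance methyltransferase, had levels of 9.48, 9.78 and 9.79 in the PI arrays, against 9.70, 9.80 and 9.74 in the AI arrays. PI array 1 was the lowest and set most of the difference of -0.061, which was 0.040 without that array. Slbp, which binds the end of histone mRNA, had levels of 9.71, 9.73 and 9.54 in the PI arrays, against 9.66, 9.63 and 9.61 in the AI arrays, with a difference of 0.027. Chaf1a and Chaf1b, subunits of the assembly factor that places new histones, had differences of 0.026 and -0.0037.

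Dtl, the adaptor of the ubiquitin ligase that destroys Cdt1 once replication has begun, had levels of 8.112, 7.949 and 7.977 in the PI arrays, against 8.003, 8.090 and 8.218 in the AI arrays. AI array 3 was the highest, the groups overlapped, and the difference was -0.091 (interval -0.30 to 0.12, limma adjusted p = 0.854). Clspn, which carries the checkpoint signal from stalled forks to Chek1, had a difference of 0.029. Of the 28 measured genes with a promoter in the table, the 9 with an E2F word before their start had a median difference of -0.039, with 6 of 9 below 0, and the 19 without a match had a median of -0.010, with 12 of 19 below 0. In the authors' deposited table, q-values of the 32 genes lay between 0.554 and 0.992, and the smallest p-value was 0.00233 for Mcm2.

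The wider replication pathway was described by 6 further lists with 104 measured genes, of which 0 passed the test in either direction, against 0.0727% of all genes. At an unadjusted p under 0.05, limma gave 1 higher and 3 lower of the 104, against 4.05% higher and 3.31% lower over all genes, and all 4 were nucleotide genes. Samhd1, a phosphohydrolase that breaks down deoxynucleotides, had levels of 10.81, 10.85 and 10.78 in the PI arrays, against 10.51, 10.39 and 10.50 in the AI arrays. All PI arrays lay above all AI arrays, with a difference of 0.34 or 1.27-fold (interval 0.17 to 0.52, limma adjusted p = 0.409). Tk1, the thymidine salvage kinase, had levels of 8.99, 8.92 and 9.09 in the PI arrays, against 9.31, 9.29 and 9.22 in the AI arrays. All PI arrays lay below all AI arrays, with a difference of -0.27 or 1.21-fold lower in PI (interval -0.46 to -0.083, limma adjusted p = 0.574).

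The remaining nucleotide genes under an unadjusted 0.05 were Mthfd1, a folate enzyme, with a difference of -0.20, and Cad, which starts pyrimidine synthesis, with -0.18. Of the 17 genes of the nucleotide list, 16 had values below 0 (94.1%), against 67.3% of the 25 percent of genes with the highest level and 52.7% of all genes, with a median of -0.078. After centring, repeated quantile normalisation and cyclic loess the count was 16, 15 and 13 of 17, against 82.8%, 54.2% and 50.3% of the genes with the highest level. Before these changes of scaling, Samhd1 was the single value above 0. Whether the nucleotide list differed from the 32 replication genes, whose own share below 0 was 65.6%, was not tested.

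In the other lists the counts below 0 were 13 of 17 origin and helicase genes (median -0.025), 16 of 18 fork enzymes (median -0.048) and 14 of 23 chromatin and checkpoint genes (median -0.013). The smallest p in each belonged to Orc5, an origin recognition subunit (-0.27), Pold4, a small polymerase delta subunit (-0.26), and Asf1b, a histone chaperone (-0.14), with limma adjusted p = 0.681, 0.682 and 0.749. The next were Cdc7, the origin-firing kinase (-0.091), Rpa1, a single-strand binding subunit (-0.14), and Timeless, a fork protection factor (-0.14). All 6 values missed the threshold. Over the 6 further lists, 80 of 104 values were below 0 (76.9%), against 67.3% of the 25 percent of genes with the highest level. Centring, repeated quantile normalisation and cyclic loess gave 87.5%, 58.7% and 51.9%, against 82.8%, 54.25% and 50.3% of the genes with the highest level.

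Cyclins, kinases and E2F factors had 17 of 22 values below 0, with a median of -0.060 and 0 past the test. E2f8, a repressor among the E2F factors, had -0.19 and E2f2, an activator, -0.22 (limma adjusted p = 0.701 and 0.731). Ccna2, the S phase cyclin, had 0.0050, its kinase Cdk2 -0.043, the G1 cyclin Ccnd1 -0.084, and Myc, a growth transcription factor, -0.11. Among 7 CDK inhibitors, 4 were below 0 and 0 passed. Cdkn1a, the p53-induced inhibitor p21, had a value of -0.15, and Cdkn2b, the inhibitor p15, a value of 0.25.

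The mitosis genes, the nearest group in the cell cycle, had a median of -0.021 over 29 measured members, with 19 of 29 below 0 (65.5%) and 0 past the test. Mki67, the proliferation antigen, had levels of 10.50, 10.28 and 10.14 in the PI arrays, against 10.46, 10.24 and 10.28 in the AI arrays, with a difference of -0.021. Ccnb1 lay on a cluster shared with the predicted gene Gm5593 and was not tested alone. The share of values below 0 was thus 65.6% for replication and 65.5% for mitosis genes. Both moved with the scaling of the arrays. The mitosis count was 25 of 29 after centring, 13 after repeated quantile normalisation and 12 after cyclic loess. The difference between these lists was not tested.

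**Figure D4:**
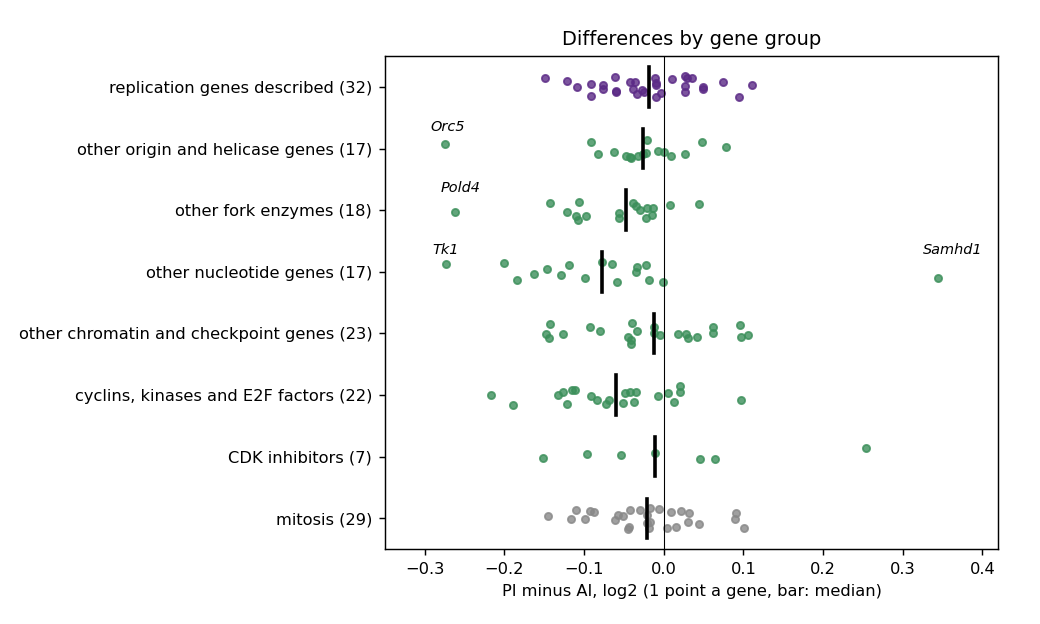
PI minus AI difference (horizontal axis, log2) of each gene in the 32 replication genes, the 6 further lists of the pathway and the mitosis list, 1 point a gene, with a bar at each median. The replication genes lie between -0.15 and 0.11. Samhd1 at 0.34 and Tk1 at -0.27 are the outermost nucleotide genes.

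Arrays correlated at 0.987 to 0.990 with each other over all clusters. Levels of the tumour keratins Krt8 and Krt18 were high, at percentiles 98.1 and 98.6 of all genes, with differences of -0.11 and -0.22. Epcam had a difference of -0.19 and lay at percentile 60.4. The 9 measured epithelial markers ran from percentile 41.8 (Cldn7) to 98.6 (Krt18), with a median of 62.9. Of the receptors called absent in the labels, Pgr lay at percentile 18.2, Esr1 at 56.0 and Erbb2 at 80.5, and these signals share no scale. Of 26 macrophage markers, 0 passed the test, and 15 had values above 0. Their summed linear signal was 885 to 955 in PI arrays and 941 to 959 in AI arrays. The 26 ran from percentile 7.87 to 85.1 of all genes, with a median of 37.2. Cd14 was the highest of them and so the largest part of the sum. The CD11b gene Itgam lay at percentile 14.4 of all genes. The defining markers Itgam, Adgre1, Csf1r, Ptprc and Lyz2 had differences of 0.014, 0.0034, -0.098, -0.21 and 0.19, and Cd68 0.033 at percentile 76.7. The groups did not overlap for 3 of the 26, Mpeg1 (0.58, interval 0.23 to 0.93), Cd14 (-0.23) and Spi1 (-0.21), which were also those under an unadjusted 0.05 (limma adjusted p = 0.476, 0.662 and 0.677). Over all genes, 13.2% had no overlap and 7.36% were under an unadjusted 0.05 with limma. Of 8 neutrophil markers, 0 passed and 6 had values above 0 (median 0.073). Their summed linear signal was 551 to 637 in PI arrays and 439 to 486 in AI arrays, with no overlap, and most of it came from S100a8, which many cell types can express. S100a8 had a difference of 0.45 with no overlap (interval 0.23 to 0.66, limma adjusted p = 0.346), and the other 7 ran from -0.058 (Ly6g) to 0.16 (Ltf) with overlap. Of 9 markers of T and B cells, 0 passed. Of 9 epithelial markers, 0 passed, with a median of -0.16 and 3 lower in PI with no overlap, as in 7.32% of all genes. Krt14 had the value farthest from 0, -0.41 (interval -0.74 to -0.079, limma adjusted p = 0.616). The part of RNA from remaining macrophages or other cells in the values of the replication genes was not tested.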

How the data were processed

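The 6 arrays were grouped by their titles into 3 PI and 3 AI samples. The deposited values are log2 expression for each transcript cluster (the probes that the array assigns to a gene), made by the authors with Affymetrix Expression Console and RMA, per the submitters' processing notes. The sources used here do not give versions, genome build or array annotation. Both deposited tables listed 41345 clusters, and 0 of their log2 values differed. Per the file headers, the authors also deposited a p-value, a q-value and a fold for each cluster. Their fold was a ratio of AI over PI within 0.1 percent for all 41345 clusters, the opposite direction to the differences given here.

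Clusters with 1 symbol (24724) were used, with symbols updated through Entrez identifiers in a RefSeq gene table of GRCm38.p6, which held 23652 of them and is credited for the promoter sequences and their coordinates. The cluster of highest mean stood for each of 23385 genes. Differences were tested with limma (version 3.58.1, under R 4.3.3: lmFit, eBayes, group only, two-sided, Benjamini-Hochberg over all genes, threshold 0.05). No filter on dim genes was applied. Figures were drawn with matplotlib 3.10.9, and tables made with pandas 2.3.3 on Python 3.11.15. On simulated data for PI against AI with 23385 genes, the fit called 17 of 50 genes given a log2 change of 0.5, 50 of 50 given a change of 1, and 8 of 23185 unchanged genes. Precision is limited by the number of arrays. The members and lists were chosen with earlier results of these data known. All members were named, with values in each array for the 10 of smallest p and for up to 2 further genes per role. Of the other lists, the 2 genes of smallest p and a few fixed genes were named, and Mthfd1, Cad, Mpeg1, Cd14, Spi1, S100a8, Ly6g, Ltf and Krt14 were added after their values were seen. 1 gene of the fixed set is not reported here. Alternatives were other scalings, variance models, filters, cluster choices, a replicate block and leaving out each array.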

Additional observations from a re-analysis of the deposited data

How the results depend on the processing

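In all 17 alternative settings 0 of the 32 replication genes passed the adjusted threshold, and the smallest adjusted p of any member was 0.283, with values floored at the 20th percentile of all values. The sign of the difference was kept in all of them by 14 genes (Mcm2, Mcm3, Mcm4, Mcm5, Cdc6, Mcm10, Gins1, Gins2, Gins3, Pole, Rfc3, Ccne1, E2f1 and Dtl). It changed in at least 1 for 18, in 42 of 544 gene and setting pairs, where the value was never larger than 0.080 in size. Many of the 544 pairs could not change sign, because the setting left the member differences as they were. Those settings were the filter at the median level, trend and robust variance, no moderation, the floor, all clusters, the replicate block and the other deposited table. The mean over clusters could change only genes with more than 1 cluster.

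Repeated quantile normalisation gave a member median of 0.0055 and values of 0.027 for Mcm7, 0.010 for Cdc45, 0.00056 for Fen1, 0.011 for Rrm1, 0.019 for Tyms and 0.043 for Chaf1b. Cyclic loess gave 13 members below 0, a median of 0.013, and values of 0.030 for Mcm7, 0.026 for Cdc45, 0.0047 for Pola1, 0.011 for Prim1, 0.0016 for Pold1, 0.015 for Rrm1, 0.031 for Tyms and 0.040 for Chaf1b. Centring each array on its median gave a member median of -0.060, beside -0.051 for all genes, 9 members with no overlap, all lower in PI (15.9% of all genes had no overlap), and 1 (Mcm2) at an unadjusted p under 0.05 (8.38% of all genes). It turned Mcm6 to -0.0069, Cdt1 to -0.032, Lig1 to -0.016, Chaf1a to -0.016, Slbp to -0.015 and Clspn to -0.013. The mean over clusters gave -0.031 for Rrm2. The causes of these shifts were not tested.

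Members at an unadjusted p under 0.05 numbered 1 among genes above the median level only (9.61% of all genes tested there), 2 with an intensity trend and robust variance (8.01%), 3 with no moderation (7.0%; Mcm2, Cdc6 and Rrm2) and 4 with the floor (7.88%). The number of all genes past the threshold, 17 as reported, was 42 above the median level, 76 with trend and robust variance, 2 with no moderation, 5 with the floor and 8 over all clusters. With the replicate number as a block it was 1, with 0 members. Deviations of same-numbered PI and AI arrays correlated at 0.041, 0.0056 and 0.057, and those of differently numbered arrays at -0.075 to 0.038. The numbers were not taken as pairs. These values do not decide whether same-numbered arrays share a mouse, which is not known.

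Leaving out 1 array at a time gave 1 to 14 genes past the threshold (1 without PI array 2, 4 without PI array 3, 7 without AI array 1 and 7 without AI array 3), a member median of -0.035 to -0.013, and 5 to 13 members with no overlap. In the same settings 22.05% to 24.49% of all genes had no overlap. The differences then ran from -0.036 to 0.041 for Mcm7, -0.080 to 0.057 for Cdt1, -0.065 to 0.050 for Cdc45, -0.081 to 0.019 for Pola1, -0.073 to 0.045 for Prim1, -0.059 to 0.014 for Pcna, -0.034 to 0.0030 for Rrm1, -0.092 to 0.058 for Tyms, -0.029 to 0.020 for Chaf1b, -0.11 to 0.040 for Uhrf1, -0.0074 to 0.087 for Slbp and -0.016 to 0.087 for Clspn.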
